A study of Glycine max with 30 samples.

Results

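Wide accessible regions of the soybean leaf genome were taken as union regions of 1000 bp or more. A union region is a stretch listed as accessible in at least 1 of 6 merged peak lists, with overlapping or touching stretches of the lists joined. Members were selected on this width alone, and 1148 of 35922 union regions met it (3.2%). They held 1.43 Mb, or 9.05%, of the 15.8 Mb listed in all. Their width is a description of how they were chosen and not a result.

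To follow accessibility over the day, the study applied ATAC-seq, which sequences the fragments that a transposase releases from open DNA, to the first trifoliate leaf of wild-type soybean of the cultivar Ws82. Seedlings grew in short days of 8 h light at 24 °C and 16 h dark at 22 °C for about 18 days by the labels, and all were then kept in constant light, which all groups share. Sampling began only after a full day of that light, so ZT0 is not its start. For the growth conditions, the series text gives other figures for the days and for the temperature, a difference not resolved here. Leaves were taken every 4 h at 6 time points from ZT0 to ZT20 (the hours in the labels' names), with biological replicates L, M and R at each, 18 libraries in all. Another 12 samples of wild type and clock mutants were not analysed here. Whole leaves mix many cell types, so a weaker peak in every cell and a peak in fewer cells cannot be told apart.

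In plant genomes, DNA that is free of tightly packed nucleosomes lies mostly at promoters, at the ends of genes and at distal enhancers, where transcription factors bind. A single bound stretch usually opens DNA about as long as 1 nucleosome or a little more, so a much wider open stretch can hold several neighbouring elements. A peak caller marks each stretch of raised coverage as a peak with 1 summit, its highest point, and whether neighbouring stretches come out as 1 peak or as several depends on the coverage between them.

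The 18 library lists held 7668 (ZT0 replicate L) to 21804 (ZT12 replicate M) peaks, with a median of 14148. The merged lists, which the authors made once per time point from all 3 replicates and which carry no heights, held 13675 regions at ZT0 to 21022 at ZT12. A wide region is called "listed" below when a merged list holds any part of it, "called" in a library when a peak of that library overlaps it by 1 bp or more, and "split" when 2 or more separate peaks of that library do so. Reads were not analysed here, so the length of a list is the measure of library size used.

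The widths of the members ran from 1000 to 3339 bp with a median of 1168 bp, against a median of 379 bp over all union regions. Most members lay close to the limit, with 411 of 1148 (35.8%) from 1000 to under 1100 bp and only 141 (12.3%) at 1500 bp or more. The 5 regions just inside the limit, with widths of 1000 or 1001 bp, were called in 5 to 17 libraries, and the 5 just outside, all 999 bp wide, in 5 to 18. Just inside, chr18:5733749-5734748 was called in 17 libraries and chr20:34140545-34141545 in 5. Just outside, chr6:16701738-16702736 was called as 1 peak in all 18 libraries and chr10:39071893-39072891 in 5. All positions are given on the Wm82.a2.v1 assembly, counted from 1.

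The widest member was chr13:3084866-3088204, 3339 bp long. It was missing from the ZT0 list, lay in 2 pieces of 1238 and 546 bp at ZT4, in a single piece of 2539 bp at ZT8 and of 2880 bp at ZT12, and again in 2 pieces at ZT16 (1050 and 1755 bp) and at ZT20 (1113 and 1425 bp). All 18 libraries had a peak in it, 8 of them 1 peak, 6 of them 2 and 4 of them 3. Libraries of a single time point differed: at ZT12, replicate R had 1 peak of 2657 bp, replicate L had peaks of 772 and 596 bp, and replicate M had peaks of 499, 230 and 1018 bp. The summits lay between 499 and 3049 bp from the region's start. Its rank was modest, with a median of 58.5% from the top of a list (24.0% to 91.8%). The widest region was thus, in most libraries, 1 or more peaks that each covered a part of it.

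The regions chr15:19589408-19592241 (2834 bp) and chr20:32901800-32904295 (2496 bp) were built otherwise. In the chromosome 20 region all 18 libraries had exactly 2 peaks, the left one 367 to 550 bp wide with its summit 268 to 276 bp from the region's start, and the right one 1565 to 1734 bp wide. The covered length was 1932 to 2228 bp and the rank 1.70% to 5.19%, so that the libraries differed little. It was 1 of 2 members split in all 18 libraries. The 6 merged lists held it as 2 pieces at 5 time points and as 1 piece of 2412 bp at ZT8, and that single list joined it.

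The chromosome 15 region also ranked high in every library, at 1.71% to 5.23%, and 2184 to 2826 bp of it were covered. It was split in 14 of 18 libraries, with a small right-hand peak that was separate in most libraries and joined in ZT0 replicate R, ZT8 replicates L and M and ZT20 replicate L. The merged lists, however, held it at ZT0 only, as a single piece of 2834 bp. There were 16 members in a single merged list, and after this one chr12:24280666-24282120 (1455 bp) was the widest of them: it was called in 18 libraries at ranks of 2.30% to 6.21% and listed at ZT0 only. The next in width, chr2:15014780-15016158 (1379 bp), was listed at ZT0 only and called in 4 libraries, the 3 of ZT0 (805, 1167 and 1166 bp covered) and ZT12 replicate R (296 bp). Of these 3 members in a single merged list, 2 were called in all 18 libraries and 1 in 4.

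The remaining members among the 10 widest were called in 14 to 18 libraries. The region chr15:4338976-4341804 (2829 bp) was called in 1 library at ZT0 (446 bp covered) and in all 3 at ZT12 (1108, 1497 and 1164 bp). Its merged piece measured 395 bp at ZT0 and 1788 bp at ZT12. The region chr2:9307545-9310255 (2711 bp) was called in 18 libraries, in 11 of them as 2 peaks, at a median rank of 7.03%. The region chr18:57235437-57237957 (2521 bp) was low, with a median rank of 65.5% in the 15 libraries that called it.

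The region chr5:686701-689160 (2460 bp) was called in 18 libraries and split in 10. In the merged lists its main piece measured 1528 bp at ZT0 and 2246 bp at ZT20. The region chr19:780565-782919 (2355 bp) was in 17 libraries and held 1 to 4 peaks in them. On chromosome 4, chr4:6538925-6541246 (2322 bp) was never listed as a piece of more than 1279 bp, while chr4:3587251-3589528 (2278 bp) was listed whole at ZT0, as 2 pieces at ZT16 and ZT20, and not at all at ZT4, ZT8 and ZT12. In these regions the full width was reached at a single time point or at none.

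**Figure D1:**
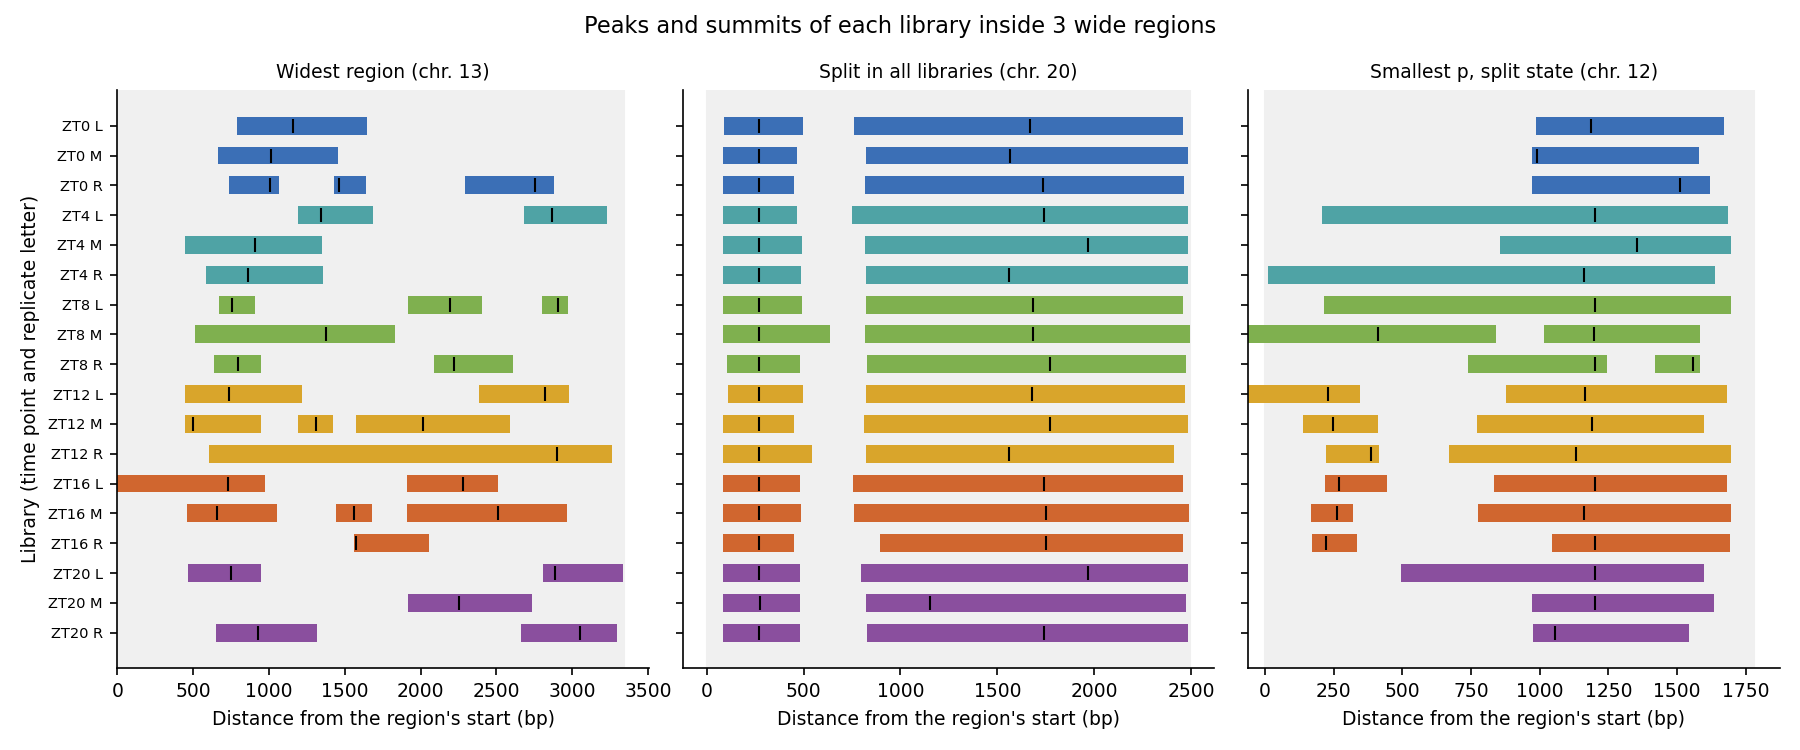
Peaks (bars) and their summits (black ticks) of the 18 libraries inside 3 wide regions. Rows are libraries, colours are time points, the x axis is the distance from the region's start in bp, and the grey band is the region, which a few bars overrun. The chromosome 20 region shows the same 2 peaks in all 18 libraries, the widest region (chromosome 13) shows 1 to 3 peaks, and the chromosome 12 region is split in 8 libraries, all of ZT8, ZT12 or ZT16.

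The share of lists and libraries that held a base was highest in the middle of members and fell toward their edges. A union region ends where the outermost piece of any list ends, so this fall follows from the joining. The regions of 800 to under 1000 bp had a like form, from 6.74% of libraries at the left edge to 49.8% in the middle. Of the bases of all members, 20.6% lay in all 6 merged lists and 22.5% in a single one. A base in all 6 lists was found in 492 of 1148 members (42.9%). In the library lists, 32.1% of the bases lay in the peaks of 9 or more libraries, 60.8% in the peaks of 1 to 8 libraries, and 7.11% in no library's peak. Regions of 800 to under 1000 bp, the nearest class below the limit, gave 29.1%, 62.5% and 8.43%. A stretch present in 9 or more libraries was found in 934 of 1148 members (81.4%), and its bases summed to a median of 379 bp per member. Such stretches numbered 1 in 744 members (64.8%), 2 in 145 (12.6%) and 3 or more in 45 (3.92%). Of the 1572 regions of 800 to under 1000 bp, 4.52% had 2 such stretches.

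**Figure D2:**
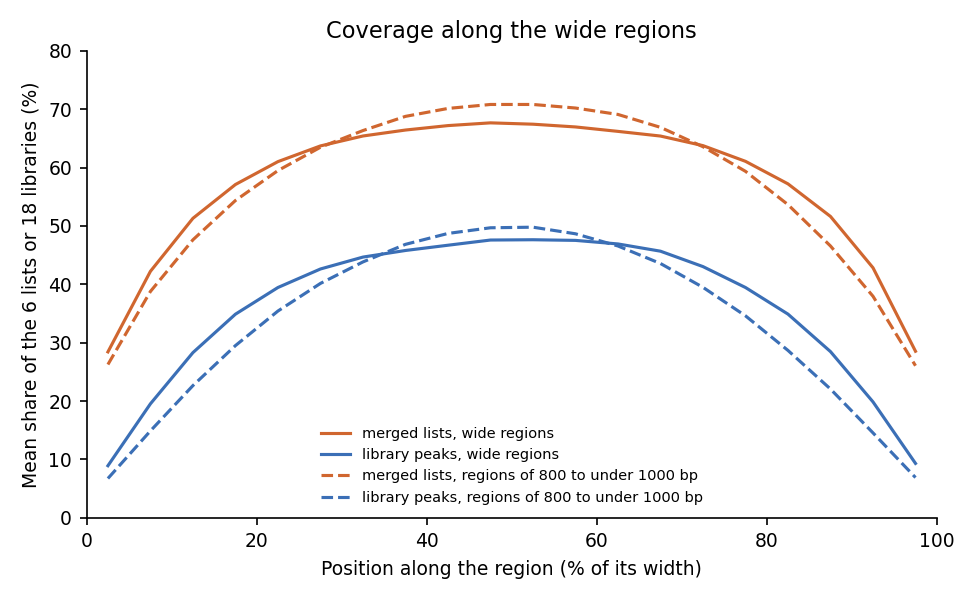
Mean share of the 6 merged lists (orange) and of the 18 libraries' peaks (blue) that cover each twentieth of a region, from its left to its right edge in percent of its width, for the 1148 wide regions (solid) and the 1572 regions of 800 to under 1000 bp (dashed). In the wide regions the share of libraries rises from 8.92% at the left edge to 47.6% in the middle, and the share of lists from 28.4% to 67.7%.

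In the merged lists, 513 members (44.7%) were listed at all 6 time points, 311 at 5, 169 at 4, 91 at 3, 48 at 2 and 16 (1.39%) at 1. Of the regions of 800 to under 1000 bp, nearly the same share was listed at all 6 (44.1%). Among all narrower regions 37.9% were in a single list. A single piece of 1000 bp or more was found in at least 1 list for 827 members (72%), most often in exactly 1 list (457 members, 39.8%), and in all 6 for 37 (3.22%). The other 321 members had no piece that reached 1000 bp: their widest piece measured 481 to 999 bp, with a median of 912 bp, and they passed the limit because pieces of different time points were offset. The widest piece made up a median of 95.2% of a member, and 257 members (22.4%) were identical to their widest piece.

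By time point, the number of members listed was lowest at ZT0 (900) and ZT20 (923) and highest at ZT12 (986), with 950 at ZT4, 968 at ZT8 and 967 at ZT16. The number present as a single piece of 1000 bp or more varied more, from 203 at ZT4 and 212 at ZT0 to 322 at ZT16 and 360 at ZT12, or from 21.4% to 36.5% of those listed. The listed share of the members' length was 50.7% at ZT0 and 63.2% at ZT12. The lists differ in length in nearly the same order as the number of members listed. Single pieces of 1000 bp or more followed that order less closely, with the fewest at ZT4. As a share of the list, pieces of 1000 bp or more were 1.59% at ZT0, 1.12% at ZT4 and 1.41% at ZT8. They were 1.73% at ZT12, 1.7% at ZT16 and 1.77% at ZT20. There is 1 merged list per time point, so these differences have no replicate check and were not tested.

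**Figure D3:**
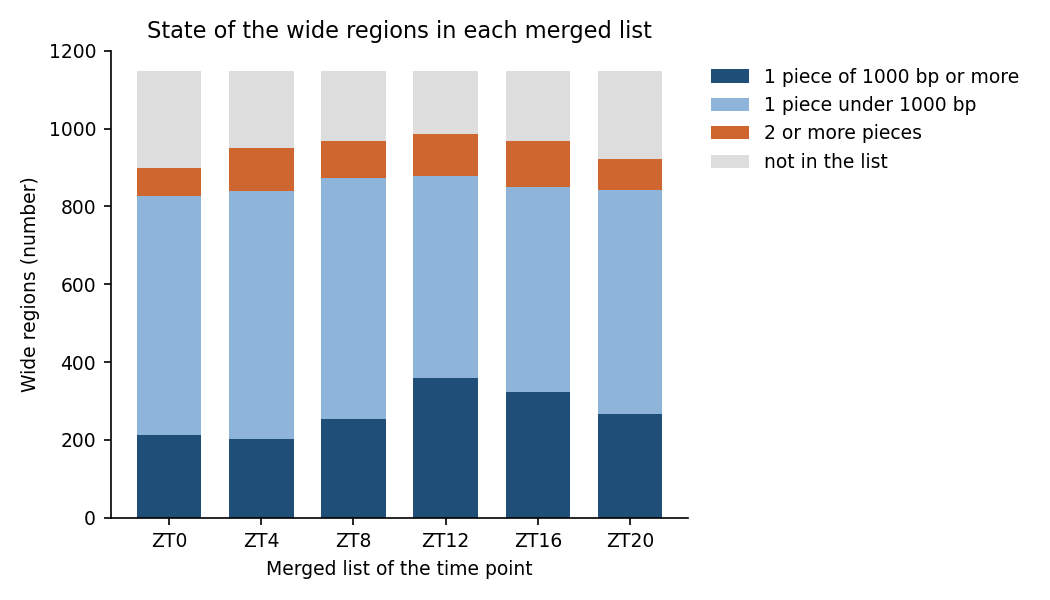
Number of the 1148 wide regions in each state in the merged list of each time point: a single piece of 1000 bp or more, a single piece under 1000 bp, 2 or more pieces, or not in the list. Single pieces of 1000 bp or more number 203 at ZT4 and 360 at ZT12, and regions in pieces number 72 at ZT0 to 117 at ZT16.

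In the merged lists, 363 members (31.6%) lay in 2 or more pieces at some time point, 2 of them in 3 pieces, against 7.44% of the regions of 800 to under 1000 bp and 0.489% of all narrower regions. In 357 of these 363 (98.3%), pieces that were separate at one time point lay inside a single piece at another. Separate pieces of a list share a union region only where pieces of other lists bridge the gap between them. This high share therefore follows largely from the joining and says little about merging over the day. The gap between pieces was 109 to 1448 bp, with a median of 265 bp over 585 gaps. Between neighbouring time points, ZT20 and ZT0 included, a member was listed at both in 4902 cases: it was single at both in 4057, in pieces and then single in 354, single and then in pieces in 353, and in pieces at both in 138. Gains and losses of a listing numbered 792 each. On a closed circle of time points gains must equal losses, and moves from pieces to a single piece and back can differ only where a member is missing from a list in between.

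Seen library by library, members were called more often than most regions. They were called in a median of 16 libraries, against 14 for the regions of 800 to under 1000 bp and 4 for all union regions, and 344 (30%) were called in all 18, against 20.5% of the regions of 800 to under 1000 bp and 5.55% of all narrower regions. At the other end, 166 (14.5%) were called in 9 or fewer libraries, against 74.6% of all union regions. The share called in all 18 rose with width on both sides of the limit. It was 14.4% at 600 to 799 bp, 24.9% at 1000 to 1199 bp and 34.5% at 1200 to 1499 bp. A call needs only 1 bp of overlap and members were chosen by width, so these differences are a description. The number of members called in a library was lowest in ZT8 replicate R (687) and highest in ZT12 replicate M (1041), with a median of 942.5.

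When a member was called, it mostly held 1 peak. Of 16483 calls, 84.6% were of 1 peak, 14.8% of 2, 99 calls were of 3 peaks and 4 were of 4. Among calls of the regions of 800 to under 1000 bp, 3.77% were of 2 or more peaks. The share rose with width inside the class, from 9.23% of calls at 1000 to 1199 bp to 17.8% at 1200 to 1499 bp. It was 31% at 1500 to 1999 bp and 57.8% in the 21 members of 2000 bp or more. Below the limit it rose as well, from 0.14% at 400 to 599 bp to 0.928% at 600 to 799 bp. Members were chosen by width, and a wider region has room for more peaks, so the rise is a description. Neighbouring peaks of a library were a median of 304 bp apart (137 to 1859 bp).

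The peaks inside members had a median width of 418.5 bp (268 and 641 bp at the quartiles), against a median of 257 bp over all peaks of the lists. A peak of 1000 bp or more was found in at least 1 library for 343 members (29.9%) and in 9 or more libraries for 32 (2.79%). A library's peaks covered a median of 39.3% of a member it called. Most members thus held no single library peak of 1000 bp.

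Of the 1148 members, 772 (67.2%) were split in at least 1 library, against 4.53% of all union regions. Of these 772 members, 423 were split in 1 or 2 libraries, 346 in 3 to 15 and 3 in 16 or more. The most peaks in 1 library, 4, were found in chr19:780565-782919 (ZT20 replicate M), chr19:38345159-38347332 (ZT0 replicate R) and chr9:352793-354950 (ZT20 replicate M). In the first, the 4 peaks of ZT20 replicate M were 156 to 510 bp wide, while ZT20 replicate L had 1 peak of 1961 bp over the same stretch. The second, 2174 bp long, was split in 14 of the 17 libraries that called it. The third, 2158 bp long, was listed at ZT16 and ZT20 only and was called in 10 libraries, all 6 of those time points among them.

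The counts per library did not separate the time points beyond the spread of the replicates. The mean number of members called was 858.7 ± 74.5 at ZT0, 898.3 ± 76.2 at ZT20, 888 ± 174 at ZT8, 914 ± 108 at ZT4, 960.3 ± 76.4 at ZT12 and 975 ± 83.5 at ZT16 (SD, n = 3; permutation test of the F statistic over the 6 time points, adjusted p = 0.754). The share of called members that were split was lowest at ZT0 (13.4% ± 2.64) and highest at ZT16 (18.5% ± 3.29), with overlapping replicates (permutation test, adjusted p = 0.654). The covered share of the members' length was 32.5% ± 3.91 at ZT0 and 41.7% ± 7.39 at ZT12 (permutation test, adjusted p = 0.754). The number of peaks inside members (762 to 1285 per library; permutation test, adjusted p = 0.754) and their share of a list (5.71% to 11.4%; permutation test, adjusted p = 0.654) did not pass either. These p-values were adjusted over the 5 measures.

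All of these values moved with the length of a library's list. Over the 18 libraries the number of members called rose with the number of peaks listed (Pearson's r = 0.893, permutation p = 1e-05; Spearman's rho = 0.901, permutation p = 1e-05), where 1e-05 is the smallest p that 100000 permutations give. The split share rose as well (r = 0.807, permutation p = 3e-05; rho = 0.771, permutation p = 0.00028), while the share of a list inside members fell as lists grew (r = -0.944, permutation p = 1e-05; rho = -0.967, permutation p = 1e-05). Adjusted over the 5 relations, the p-values were at most 0.00028. Without ZT12 replicate M and ZT0 replicate L, the libraries farthest from the median length, r was 0.882, 0.74 and -0.935. Within time points, as deviations from their means, r was 0.906, 0.871 and -0.958. With the 7668 strongest peaks of each list, the number called was 625 to 785 per library and the split share 3.36% to 11.5%. The order of the time points was then another: ZT0 had the highest mean number called (743.3 ± 47.2, against 698.7 ± 31.8 at ZT16) and the highest mean split share (8.77% ± 2.35, against 5.70% ± 1.56 at ZT16; SD, n = 3). The list of ZT0 replicate L has 7668 peaks and so stayed whole, and it gave the highest values, 785 and 11.5%. ZT0 replicates M and R had split shares of 7.66% and 7.17%, and ZT20 replicates L, M and R 4.03%, 8.83% and 10.8%. No difference between time points was detected in this setting (permutation test, adjusted p = 0.359 for the number called and 0.42 for the split share).

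**Figure D4:**
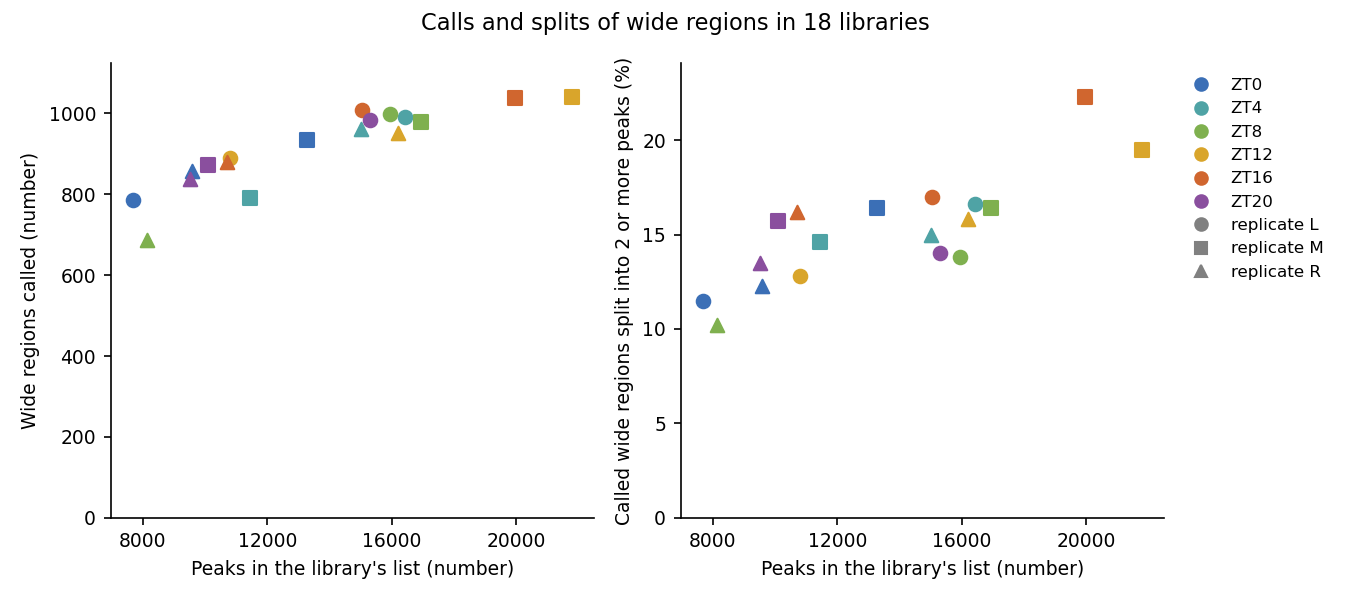
Wide regions called in a library (left) and the share of them split into 2 or more peaks (right), against the number of peaks in the library's list, for 18 libraries. Colours are time points and symbols are replicate letters. Both rise with the list, from 785 regions and 11.5% in the shortest list to 1041 regions and 19.5% in the longest.

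Summits gave the positions of the highest points inside the members. The library lists placed 19076 summits in them. When summits at most 100 bp from the next were joined into a site, 568 members (49.5%) had 1 site that at least 3 libraries shared, 446 (38.9%) had 2, 89 had 3, 15 had 4, 2 had 5, and 28 had none. Neighbouring sites were a median of 479.5 bp apart, with a central range of 289 to 668.5 bp between the quartiles. Among 343 members called in all 18 libraries with a summit inside, the strongest summit lay at one site in every library for 164 (47.8%) and at one site in 9 or fewer libraries for 18 (5.25%).

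No difference was detected between time points in where the strongest summit lay. In pairs of libraries of the same time point, 72.9% ± 1.61 (SD over 18 pairs) of the members called in both had it at the same site, and in pairs of different time points 72.7% ± 1.72 (135 pairs). The difference of 0.191 percentage points was tested by permuting the time points over the libraries (one-sided permutation p = 0.23), a test added after seeing the data. With summits up to 200 bp apart joined, the difference was 0.393 (permutation p = 0.0261), and with an equal number of peaks per list it was -0.178 (permutation p = 0.717). Without ZT12 replicate R or ZT16 replicate M it was -0.0138 or -0.00739.

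Ranks were taken within a list, by the −log10 q of a member's strongest peak, and are given in percent from the top. The median rank of a member was 42.4%, against 47.1% for the regions of 800 to under 1000 bp and 64.1% for all narrower regions. This order depends on how often regions were called: among regions called in all 18 libraries, the median was 17.3% for 344 members and 11.6% for 1931 narrower regions, and among those called in 9 to 17 libraries it was 47.7% and 43.5%. No member had a median rank in the upper 1%, the best being 1.35%. By the methods, the authors at some stage excluded the accessible regions of highest signal, and whether the merged lists were made before or after that step is not stated in the sources used here. Of the members, 85 (7.4%) were in the upper 10% and 426 (37.1%) in the lower 50%. In single libraries, 6.4% to 17.8% of the called members were in the upper 10% of the list. Apart from the very top, wide regions were spread over nearly the whole range of heights.

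A member could be called in all 3 libraries of a time point and yet be missing from its merged list. This was the case for 340 of 4319 such cases (7.87%), against 227 of 4619 (4.91%) for the regions of 800 to under 1000 bp and 863 of 30699 (2.81%) for all narrower regions. The missing cases were lower on average, with a median rank of 42.7% against 28.4% for those listed, but they reached into the top of the lists. Of the 344 members called in all 18 libraries, 82 (23.8%) were missing from at least 1 merged list, against 5.59% of the narrower regions called in all 18. The peaks of different libraries in a member need not overlap each other, and the part of this in these counts was not tested. The reverse, a member listed with no library peak at that time point, occurred in 0 of 5694 cases.

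To ask whether members merged and split with a daily rhythm, the split state was tested for a 24-h cosine. A library without a peak in a region counted as not split, so the test does not tell a single peak from no peak. All regions split in 3 to 15 libraries could be tested, 436 in all and 346 of them members. With 18 libraries the exact test has a floor: the smallest p it can give is 0.000123, for a region split in 9 libraries, and 0.00735 for one split in 3, while a lone region among 436 would need 0.000115. The test could therefore call regions only if several lay near their floor together. No region was called: 0 of 346 members had an adjusted p under 0.05 (exact test with Benjamini-Hochberg adjustment over the 436 regions; 0% over all tested regions), a count that says little about whether members split with a rhythm. Before adjustment, 20 members (5.78%) had an exact p under 0.05, against 5.5% of all regions tested. The test for any difference between time points also gave 0.

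The smallest p belonged to chr12:807005-808786, 1782 bp long and called in all 18 libraries. It was split in 0 of 3 libraries at ZT0 and at ZT4, in 2 at ZT8, in 3 at ZT12, in 3 at ZT16 and in 0 at ZT20 (exact p = 0.000823, adjusted p = 0.359). In ZT12 and ZT16 a small left peak, 154 to 407 bp wide, stood apart from a right peak of 650 to 1027 bp. At ZT4, replicates L and R had a single peak of 1478 and 1630 bp. The merged lists held the same region as 1 piece at every time point, from 856 bp at ZT0 to 1782 bp at ZT4.

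In chr8:20586567-20588821 (2255 bp), the split state was seen in all 3 libraries of ZT12 and in 2 of ZT16 only (exact p = 0.0042, adjusted p = 0.458). The region chr10:47969514-47971560 (2047 bp) was chosen among equal p-values for its width. It was called in 7 libraries: as 1 peak in the 3 of ZT4, as 2 peaks in the 3 of ZT8 and as 1 peak in 1 library of ZT16 (exact p = 0.00735, adjusted p = 0.458). Most libraries counted as not split had no peak in this region, so its p does not separate splitting from being called at all. Each of these 3 p-values was the smallest that the region's number of split libraries allows.

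The heights of members were tested through their ranks. A limma fit of a 24-h cosine to normal scores of the rank was run on the 2275 regions called in all 18 libraries, which included 344 of the 1148 members. For this fit the regions were ranked within each library among these 2275 only, not in the whole list. After adjustment over all 2275 regions, 1 of 344 members passed (adjusted p under 0.05), against 0.659% of all regions tested. At an unadjusted p under 0.05 there were 48 members (14%), against 12.3% of all tested. Adding regions called in 15 to 17 libraries, with uncalled libraries at the lowest rank, gave 10 members of 684 and 62 of 4904 regions. The count of members was 2 without ZT8 replicate L, ZT8 replicate R, ZT12 replicate L, ZT16 replicate M or ZT20 replicate L, and 1 without any of the other libraries.

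The member that passed was chr5:32149313-32151259, 1947 bp long, listed at all 6 time points. Its rank was 10.4%, 5.63% and 9.32% at ZT0 (replicates L, M and R), 5.22%, 6.29% and 3.67% at ZT4, and 11.1%, 3.85% and 11.0% at ZT8. It was 77.5%, 35.0% and 46.2% at ZT12, 41.2%, 35.9% and 53.8% at ZT16, and 16.9%, 18.6% and 19.5% at ZT20. In these ranks, taken in the whole lists, all 9 libraries of ZT0, ZT4 and ZT8 were higher than all 9 of the other time points. The fit used scores of the rank among the 2275 regions tested. In those scores ZT8 replicate L (-0.209) lay just below ZT20 replicate M (-0.197). The fitted amplitude was 1.47 ± 0.138 in normal scores (SE), with its maximum at hour 2.55 (limma, adjusted p = 0.000105). The call held under each of 5 alternatives tried (adjusted p from 1.56e-05 to 0.0406) and without any library in turn (adjusted p from 1.01e-05 to 0.00062).

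In the same region, the peaks covered less at ZT12 than at ZT0. They covered 1340, 1125 and 1078 bp at ZT0 and 263, 943 and 714 bp at ZT12. At ZT16, where the rank was also low, they covered 1044, 1081 and 585 bp, which overlaps the values of ZT0. The merged piece measured 1919 bp at ZT4 and 946 bp at ZT12. The libraries at ZT0 covered more than those at ZT12 without overlap, but the region did not pass the test of covered length.

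For the width of members over the day, the bases covered by a library's peaks were tested in the same regions on a log2 scale, with each library centred on its median. Here 2 of 344 members passed (limma, adjusted p under 0.05), against 0.396% of the 2275 regions. At an unadjusted p under 0.05 there were 55 members (16%), against 10.5% of all tested. Without centring, 0 members passed.

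In chr10:39032813-39034396 (1584 bp) the covered length was 780, 716 and 931 bp at ZT0 and 1029, 839 and 1099 bp at ZT4. It was 1440, 1367 and 882 bp at ZT8, 1335, 1397 and 1449 bp at ZT12, 1287, 1155 and 1162 bp at ZT16, and 924, 1060 and 637 bp at ZT20. All libraries of ZT12 and ZT16 covered more than any of ZT0, ZT4 or ZT20, and ZT8 replicate R was low. The amplitude was 0.35 ± 0.06 on the log2 scale (SE) with its maximum at hour 11.1 (limma, adjusted p = 0.0386). The merged piece was widest at ZT8, 1562 bp, and narrowest at ZT20, 1224 bp.

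The other, chr20:37119048-37120061 (1014 bp), was a single peak in all 18 libraries and moved in the opposite sense. It covered 609, 862 and 849 bp at ZT0, 659, 570 and 684 bp at ZT4, and 862, 445 and 296 bp at ZT8. It covered 421, 565 and 420 bp at ZT12, 879, 803 and 632 bp at ZT16, and 934, 937 and 801 bp at ZT20. All libraries of ZT16 and ZT20 lay above those of ZT12, while ZT8 spanned nearly the whole range. The amplitude was 0.50 ± 0.09 (SE) with its maximum at hour 21.5 (limma, adjusted p = 0.0386), and the merged piece measured 587 bp at ZT12 and 1009 bp at ZT20.

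Both calls were near the threshold. Without centring the adjusted p was 0.0782 and 0.192, and in the test for any difference over the time points 0.212 and 0.181. The test for any difference called 3 other members. When 1 library was left out, the chromosome 10 region kept its call in 5 of 18 fits (adjusted p from 0.0248 to 0.076) and the chromosome 20 region in 3 of 18 (0.000699 to 0.0842). The number of members called was 0 without ZT0 replicate M, ZT4 replicate L, ZT4 replicate R, ZT8 replicate M, ZT12 replicate R or ZT16 replicate M. It was 1 without ZT0 replicate L, ZT8 replicate L, ZT8 replicate R, ZT12 replicate M, ZT16 replicate L or ZT20 replicate R, 3 without ZT12 replicate L, and 5 without ZT16 replicate R.

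**Figure D5:**
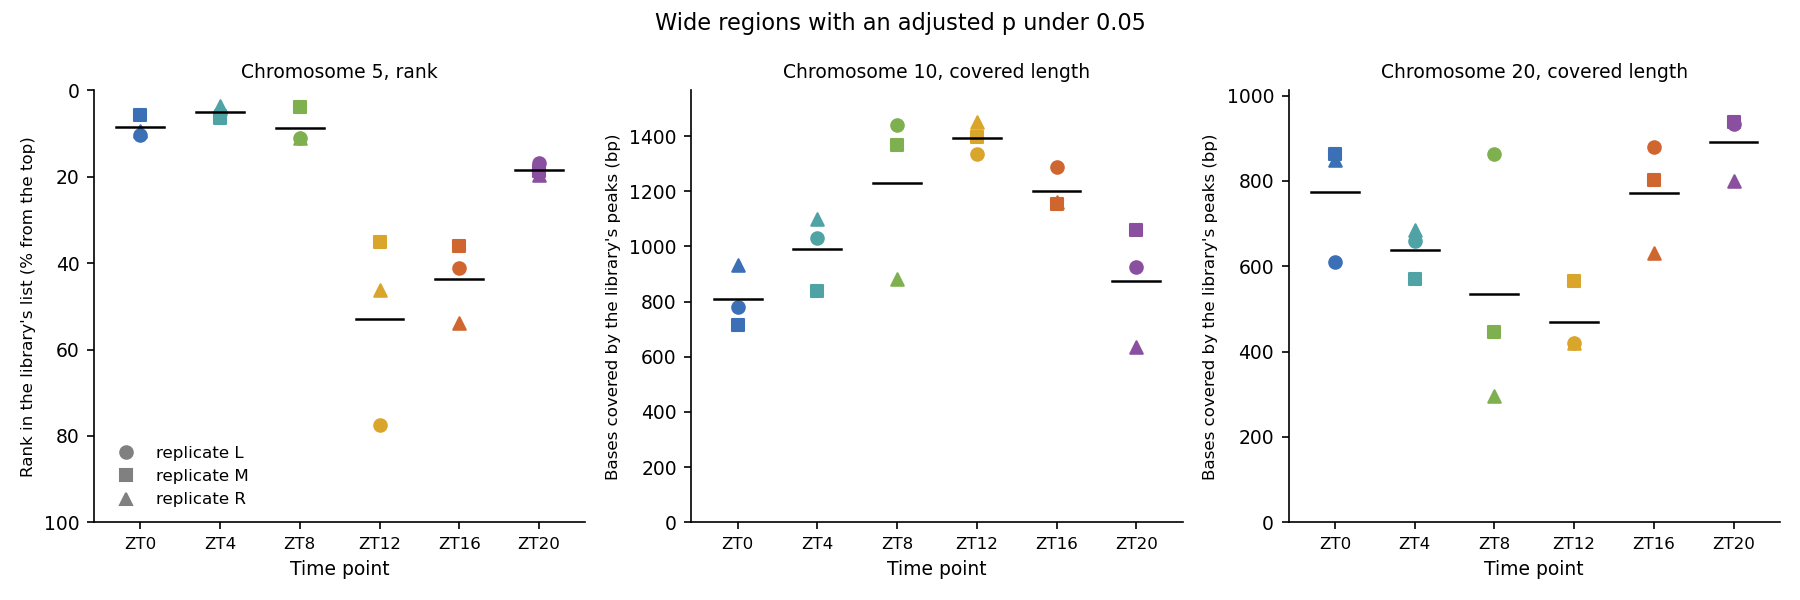
The 3 wide regions with an adjusted p under 0.05 in the rank test (left) or the covered-length test (middle and right), by time point. Points are libraries (symbols are replicate letters), lines are means of 3 libraries, and the rank axis runs downward from the top of the list. The chromosome 5 region ranks at 11.1% or higher in the list at ZT0 to ZT8 and at 35.0% or lower at ZT12 and ZT16, and the covered length is largest near ZT12 on chromosome 10 and near ZT20 on chromosome 20.

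Members lay on all 20 chromosomes. They made up 2.32% of the union regions on chromosome 3 (36 members) to 3.73% on chromosome 2 (80 members), and the Wilson 95% intervals of these shares, 1.68% to 3.19% and 3.01% to 4.62%, overlap. The outer 25% at either end of the chromosomes held 76.6% of the members and 73.3% of all union regions, and the outer 10% held 37.5% and 36.2%. Neighbouring members were a median of 353 kb apart, and 36 of 1128 neighbouring pairs were at most 10 kb apart. The densest windows of 100 kb held 4 members each, at chr2:1320259-1365284, chr11:8474061-8518386 and chr12:2708679-2783212. Another union region lay within 2 kb of 36% of the members and of 32.4% of the narrower regions. No gene is assigned to a region, since no annotation of this assembly was used here.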

How the data were processed

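Per the paper's methods, the authors trimmed the reads, aligned them to the Wm82.a2.v1 assembly with Bowtie2 (several alignments were kept for a read pair) and ran MACS2 on single, downsampled replicates and on merged replicates, retaining peaks found in both. The methods also exclude the regions of highest signal and those low at every time point, and do not say whether the deposited merged lists precede this step. Reads from repeated sequence can therefore be counted at more than 1 place, and where a peak ends can depend on depth. The deposited library lists give start, end and summit positions, a score, −log10 p and −log10 q values, and a ratio of fragments to background (fold). The score, fold and −log10 p took no part in the main results. The deposited merged lists give positions only. FastQC and Bowtie2 are named in the submitters' processing notes.

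Union regions joined overlapping or touching entries of the 6 merged lists. Ranks are within a list, and for the limma fit they were taken among the regions tested only. Library measures were compared by a permutation test of F (100000 resamples), the split state by an exact test of all assignments of the split calls to the 18 libraries, and ranks and covered length by limma 3.58.1 in R 4.3.3 with a 24-h cosine, all with Benjamini-Hochberg adjustment. Python 3.11.15, numpy 2.4.6, pandas 2.3.3, scipy 1.17.1 and matplotlib 3.10.9 were used. Shares have Wilson 95% intervals where printed, which cover counting error only. The tests were checked on simulated data. By the series text, the letters mark independent replicates.

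The members and lists were chosen with earlier results of these data known. Regions named were the 10 widest, 5 just inside and 5 just outside the limit, 3 with the most peaks in a library, 3 in the fewest merged lists (ties by width), and up to 5 members with an adjusted p under 0.05 in each test across regions, otherwise the 3 of smallest p. Width pools all 6 lists, which come from the same reads as the library lists. Alternatives were limits of 800 and 1200 bp, an equal number of peaks (7668), a −log10 q of at least 5, other ranges of calls, ranking by fold or percent, no centring, any difference between time points, the replicate letter as a block, and each library left out.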

Additional observations from a re-analysis of the deposited data

Results flagged for a closer look

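Wide signal was also present outside the merged lists. When library peaks of 1000 bp or more were joined over the 18 libraries, 10 of 358 joined stretches overlapped no union region and so entered no comparison. For 6 of the 10, all 18 libraries had a peak of 1000 bp or more. The widest, chr15:47403124-47406367, spanned 3244 bp at a median rank of 0.394% from the top of a list, above that of any wide region in the report. The next, chr12:39191469-39194659 (3191 bp, median rank 0.545%), lay near another such stretch, chr12:39184044-39186089 (2046 bp, 0.47%). The highest median rank, 0.0428%, was that of chr16:6446360-6447624 (1265 bp). The authors' methods exclude the regions of highest signal, and whether that filter or another step left these stretches out was not tested.

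The absence of a wide region from a merged list was flagged 340 times where all 3 libraries of that time point had a peak in it. These cases touched 266 of the 1148 wide regions (23.2%). The regions chr15:19589408-19592241 and chr12:24280666-24282120, each listed at ZT0 only and called in all 18 libraries, were among them. The peaks of the 3 libraries need not overlap each other, and the part of this in the count was not tested.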

How the results depend on the processing

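The number of wide regions was 2720 with a limit of 800 bp and 498 with 1200 bp, and stayed within 1.5 times of 1148 when touching entries were kept apart or any time point's list was left out. No library measure passed the threshold under any alternative (adjusted p from 0.317 to 0.745) or without any library (0.327 to 0.887). The test of the split state called 0 regions in each fit, but its smallest possible p leaves little room to call any, so this is no sign of stability. In rank, 15 regions passed, 10 to 17 without 1 library, 62 (10 of them wide) with regions called in 15 or more libraries, 1 when ranked by fold, 8 for any difference between time points, and with rank percent 2 wide regions. In covered length, 9 regions passed, 3 to 13 without 1 library (wide regions 0 to 5, and 1 to 2 in rank). There 3 passed without centring (0 wide), 3 for any difference (3 wide), and 1 wide region with an equal number of peaks. The difference in strongest summits was 0.393 with summits up to 200 bp apart joined, -0.178 with an equal number of peaks, and -0.0138 to 0.443 without 1 library. Except where the setting itself changes the regions tested, the cause was not tested.

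In ranks, no pairing of the libraries by replicate letter was seen: among 45 pairs with the same letter, deviations of rank correlated at over 0.1 in 4, with a median r of 0.0182 (other letters -0.00395). This check does not cover list length, splitting or covered length. With the replicate letter as a block, 5 regions passed in covered length, 0 of them wide (adjusted p = 0.0707 for both named regions), 15 in rank with 1 wide, and 0 in the split state. The library measures did not pass in the block fit, where the unadjusted p of the split share was 0.0635, against 0.223 without the block (permutation test).

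Depth enters only through the lengths of the lists, and fewer peaks in a short list may be a loss of depth, which was not tested. Whether depth joins or breaks peaks was not tested either, and the split share rose with the length of a list (Pearson's r = 0.807). Merged lists have no replicates. Regions under test for rank and covered length were those called in every library, 344 of 1148.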
